A study of Mus musculus with 26 samples.

Results

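In all, 10 genes that mark the ends of the liver lobule were followed across 26 mouse liver libraries: 8 pericentral genes (Glul, Slc1a2, Rhbg, Oat, Cyp2e1, Cyp1a2, Slc13a3 and Gulo) and 2 periportal genes (Cyp2f2 and Hsd17b13). They are 10 of 19638 genes listed in at least 1 library and were listed in every library. They were chosen by name for their known position in the lobule, with earlier results of these data known. Shares of members called, set beside those of all genes, therefore only describe them. The libraries fall into 8 groups, all of strain C57BL/6 by label. Young livers, aged 2 to 3 months, were wild type (WT, 3 libraries) or Alb-Cre:Hdac3-/-, a line in which the albumin promoter drives Cre, and so loss of the histone deacetylase Hdac3, in hepatocytes. The Alb-Cre:Hdac3-/- livers were taken 0 d (3 libraries), 7 d (4), 21 d (4) and 50 d (3) after sPH, successive partial hepatectomy. Whether WT mice were operated on is not in the labels, nor whether 0 d lies before the first operation or after the last. Older tissue came from spontaneous Alb-Cre:Hdac3-/- tumors (3 libraries, 10 months), non-tumor tissue beside such tumors with the same genotype and age (adjacent, 3), and liver tumors of Fah-/- recipient mice (3, 12 months), whose cells of origin the labels do not give. Nothing in the labels says that replicates are separate animals, so p-values measure the spread between these libraries, which may in part be technical. Within every group this spread exceeded counting error, with a chi-square per degree of freedom of 7.25 to 271 between pairs of libraries. At 0 d, at 7 d, in Hdac3-/- tumors and in adjacent tissue, replicates differed in Y-linked or beta-globin transcripts, as given below. Each of these groups thus held more than 1 animal.

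Liver lobules are zoned: blood enters at portal tracts and leaves at a central vein, and hepatocytes along the way express different enzymes. Wnt ligands from endothelial cells of the central vein activate beta-catenin in nearby hepatocytes, which is known to sustain pericentral genes, above all Glul. Urea synthesis and gluconeogenesis lie periportally, while glutamine synthesis, the last trap for ammonia, is confined to a thin layer around the central vein. In RNA from whole tissue, fewer cells of one zone and less RNA per cell cannot be told apart.

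Library totals ran from 8602526 to 11094627 estimated counts, with 15369 to 16373 genes listed. Hdac3 itself was not lower in tissue labelled Hdac3-/-: its level in CPM (counts scaled to a common library size, with TMM over all libraries) was 32.1 to 36.8 in WT, and 36.8 to 52.2 in the 4 young Hdac3-/- groups. Counts over a whole gene do not check an exon deletion, so the genotypes rest on the labels. All 8 hepatocyte markers were detected in every group. Y-linked transcripts summed to at most 0.261 CPM in WT and 0 d, to between 40.6 and 93.5 CPM in all 7 d, 21 d and 50 d libraries, to 40.9 CPM in Hdac3-/- tumor replicate 3 and to 27.1 CPM in adjacent replicate 2. The share of adult beta-globin transcripts from Hbb-bs and Hbb-bt, which belong to 1 haplotype, was 99.6 to 100% in WT, 52.7 to 99.6% at 0 d and 0 to 2.82% at later times apart from 48.1% in 7 d replicate 4. The young groups thus differ in genetic background as well as in their labels.

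To show the promoters whose genes are compared below, the 250 bases before the start site are given for 5 members, read from RefSeq on GRCm38.p6, the same assembly as the mm10 build of the libraries. Of the 10 members 8 had an entry, all but Rhbg and Gulo. Cyp2e1 (chr7:140763569-140763818, plus strand) and Cyp1a2 (chr9:57683656-57683905, minus strand) are the 2 pericentral cytochromes, which behaved differently at 0 d. Slc1a2 (chr2:102706188-102706437, plus strand, a start site within the annotated gene) was among the members with the widest range, Glul (chr1:153899679-153899928, plus strand) is the classical pericentral gene, and Hsd17b13 (chr5:103977389-103977638, minus strand) moved opposite to most. Capitals mark matches to CTTTGA, the core bound by TCF/LEF factors, to AGGTCA, the core site of many nuclear receptors, and to TATAAA, the box bound by the TATA-binding protein; each was searched on both strands. No matches overlapped.
Cyp2e1: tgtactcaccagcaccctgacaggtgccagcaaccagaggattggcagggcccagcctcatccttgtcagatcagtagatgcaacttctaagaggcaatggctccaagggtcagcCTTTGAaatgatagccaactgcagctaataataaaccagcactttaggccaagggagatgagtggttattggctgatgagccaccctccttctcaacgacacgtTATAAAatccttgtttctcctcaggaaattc
Cyp1a2: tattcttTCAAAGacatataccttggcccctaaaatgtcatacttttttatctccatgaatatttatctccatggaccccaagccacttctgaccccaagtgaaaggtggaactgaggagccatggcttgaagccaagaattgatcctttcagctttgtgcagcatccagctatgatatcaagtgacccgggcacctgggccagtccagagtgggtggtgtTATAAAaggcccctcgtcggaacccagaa
Slc1a2: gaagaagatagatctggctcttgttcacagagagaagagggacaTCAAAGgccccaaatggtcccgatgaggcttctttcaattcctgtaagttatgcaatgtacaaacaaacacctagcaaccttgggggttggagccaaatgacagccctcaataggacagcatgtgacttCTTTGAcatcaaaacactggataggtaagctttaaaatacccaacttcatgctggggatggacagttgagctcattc
Glul: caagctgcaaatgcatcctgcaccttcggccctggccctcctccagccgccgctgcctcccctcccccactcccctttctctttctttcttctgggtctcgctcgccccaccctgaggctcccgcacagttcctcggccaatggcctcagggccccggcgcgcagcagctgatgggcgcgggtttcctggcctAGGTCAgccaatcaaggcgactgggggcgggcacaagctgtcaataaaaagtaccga
Hsd17b13: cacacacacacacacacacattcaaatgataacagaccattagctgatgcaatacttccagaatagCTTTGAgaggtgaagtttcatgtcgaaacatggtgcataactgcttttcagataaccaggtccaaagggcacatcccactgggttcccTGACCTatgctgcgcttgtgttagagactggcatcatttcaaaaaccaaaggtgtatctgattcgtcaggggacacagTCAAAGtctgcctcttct

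CTTTGA stood in 4 of the 8 members' windows against 13.8% of 32817 RefSeq windows of the same length, once each in Cyp2e1 and Cyp1a2 and at 2 places each in Slc1a2 and Hsd17b13. It was thus found on both sides of the zonal divide and not in Glul. AGGTCA was in 3 of 8 windows (Glul, Hsd17b13 and Cyp2f2) against 14% of all, and TATAAA in 2 of 8, the 2 pericentral cytochromes, against 12.4%. GCGTG, the core of the site bound by the aryl hydrocarbon receptor, was in 0 of 8 windows against 28.1%. These are matches of letters in a short window and show neither binding nor its absence.

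At 0 d after sPH, 7 of the 8 pericentral genes were lower than in WT, between 3.08-fold for Slc13a3 and 22.2-fold for Slc1a2, and 1 of the 2 periportal genes, Hsd17b13, was higher. Of all 13617 genes tested in young livers, 37.3% passed at an adjusted p of 0.05 in this comparison, 19% as lower and 18.3% as higher. All tests are edgeR's quasi-likelihood F-test with Benjamini-Hochberg adjustment over all genes tested, and all 10 members passed the filter on low counts. The median log2 difference of the pericentral members was -2.29, against 0.00 for all genes. The plot of levels by library shows each member in all 8 groups.

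**Figure D1:**
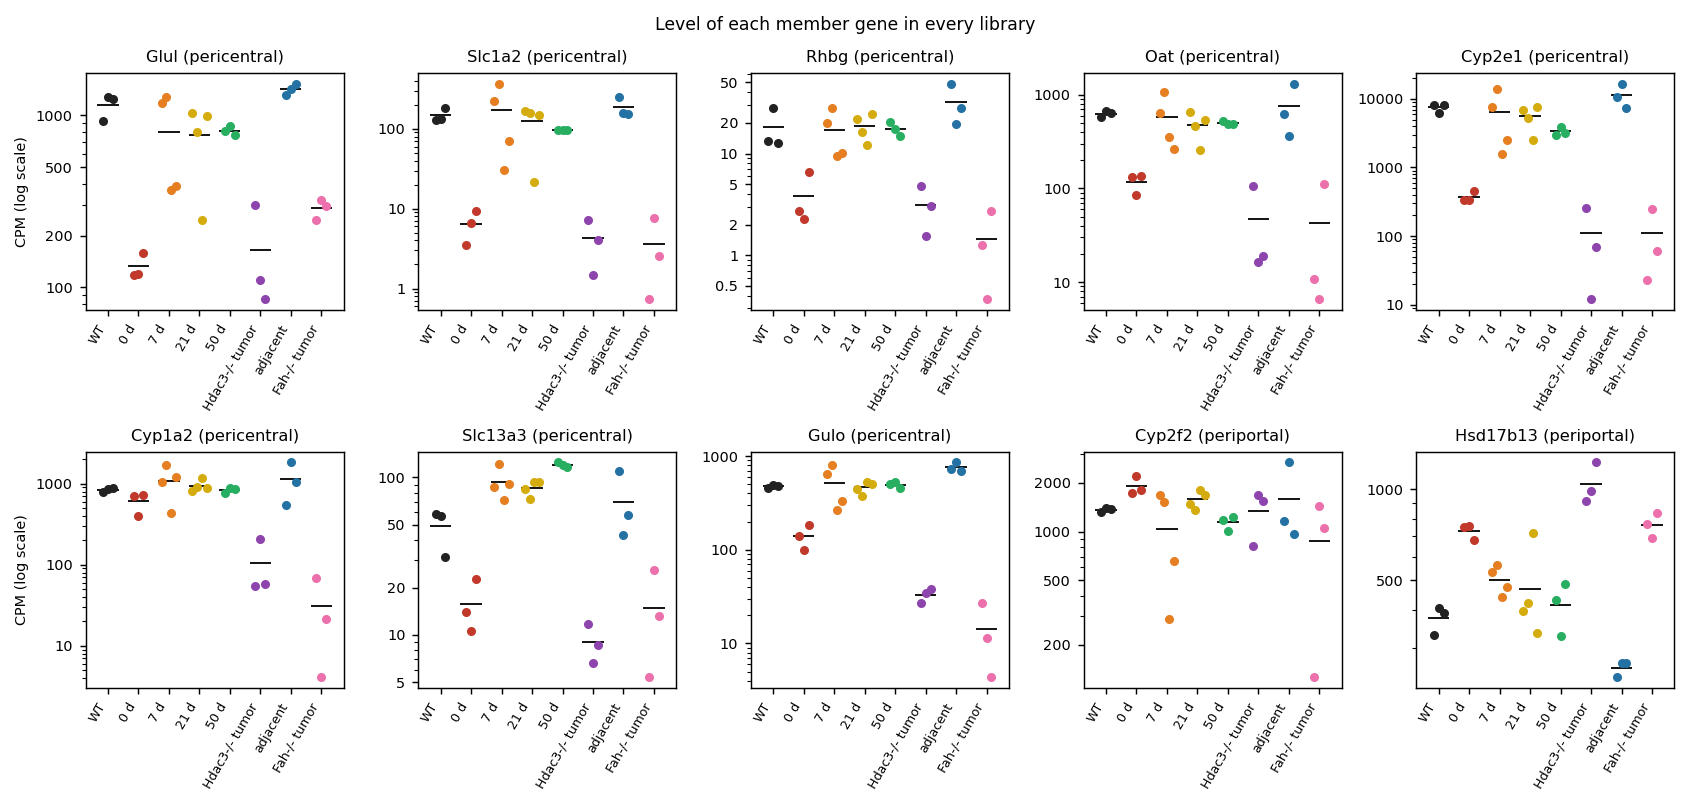
Level of each of the 10 members in every library, in CPM on a log scale, by group; points are libraries and bars are group means. The 3 libraries at 0 d and the tumors sit below WT and adjacent tissue for Glul, Slc1a2, Rhbg, Oat, Cyp2e1, Slc13a3 and Gulo, whereas Hsd17b13 runs the other way.

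The first 4 members handle glutamate, glutamine and ammonia. Glul (gene ID 14645, chromosome 1, 153899929 to 153909723) encodes glutamine synthetase, which joins ammonia to glutamate. It stood at 928, 1279.7 and 1248 CPM in WT and at 119, 119 and 159.5 CPM at 0 d. The groups were far apart and each was tight, with a log2 difference of -3.10 ± 0.53 (SE; 8.57-fold lower, adjusted p = 0.000449). In later livers Glul was 1181, 1274, 371 and 390.4 CPM at 7 d, 1031, 796, 246 and 995 CPM at 21 d, and 811, 872 and 766 CPM at 50 d. All 11 later libraries lay above every 0 d library, but 7 d replicates 3 and 4 and 21 d replicate 3 lay well below the rest of their groups. The later groups were higher than 0 d by 2.58 ± 0.50, 2.52 ± 0.50 and 2.61 ± 0.51 on the log2 scale (adjusted p = 0.00225, 0.00181 and 0.00233).

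In older tissue Glul was 1308, 1425 and 1524 CPM in adjacent tissue, 303, 109.8 and 85.5 CPM in Hdac3-/- tumors and 248, 321 and 298 CPM in Fah-/- tumors. Every tumor of either kind lay below every adjacent library, and adjacent tissue above every WT library. The log2 difference from adjacent tissue was -3.11 ± 0.50 in Hdac3-/- tumors (adjusted p = 0.00791) and -2.31 ± 0.48 in Fah-/- tumors (adjusted p = 0.0146). Without Hdac3-/- tumor replicate 1, the highest of its group, the former was -3.88, and without adjacent replicate 3 the adjusted p of the latter was 0.0504.

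Slc1a2 (gene ID 20511, chromosome 2, 102658239 to 102790784) encodes a glutamate transporter of the plasma membrane. It was 128, 134 and 179.7 CPM in WT and 3.46, 6.60 and 9.44 CPM at 0 d, a log2 difference of -4.48 ± 0.83 (22.2-fold lower, adjusted p = 0.000864). At 7 d it spread from 30.2 to 364 CPM (replicates 1 to 4: 222, 364, 30.2 and 69.5), at 21 d it was 167, 158, 21.3 and 151 CPM, and at 50 d 97.1, 97.7 and 97.4 CPM. Every later library again exceeded every 0 d library, and the 3 libraries at 50 d were nearly equal. The later groups exceeded 0 d by 4.70 ± 0.83, 4.24 ± 0.81 and 3.89 ± 0.81 on the log2 scale (adjusted p = 0.00126, 0.00148 and 0.00327), the first being 4.03 without 7 d replicate 2.

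Tumors held almost no Slc1a2: 7.16, 1.46 and 4.08 CPM in Hdac3-/- tumors and 0.736, 7.59 and 2.58 CPM in Fah-/- tumors, against 247, 156 and 154 CPM in adjacent tissue. That is 44.2-fold lower in Hdac3-/- tumors (log2 difference -5.47 ± 0.85, adjusted p = 0.00692) and 51.3-fold lower in Fah-/- tumors (-5.68 ± 0.86, adjusted p = 0.00476). Single libraries moved both values: without Hdac3-/- tumor replicate 1 the first was -6.09, and without Fah-/- tumor replicate 2 the second was -6.79. The deposited gene length of Slc1a2 differed between libraries, from 2921 to 7669 bases, while that of every other member was constant or nearly so, so its length-scaled level also depends on the transcripts assigned to it. On the log2(FPKM + 1) scale (deposited fragments per length and library size) the difference at 0 d was -3.33, those of the later groups from 0 d were 2.89, 2.71 and 3.06, and those in Hdac3-/- and Fah-/- tumors -4.39 and -4.26. All of these passed, and the added 1 makes differences of low genes smaller.

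Rhbg (gene ID 58176, chromosome 3, 88242874 to 88254739), an ammonium transporter, was the lowest of the members, with 4 to 497 estimated counts per library. It ranged from 12.8 to 28.0 CPM in WT and from 2.26 to 6.64 CPM at 0 d (log2 difference -2.20 ± 0.48, adjusted p = 0.00252; -2.85 without 0 d replicate 3). Levels at 7 d, 21 d and 50 d ran from 9.39 to 28.0 CPM, all above the 0 d range, with log2 differences from 0 d of 2.10 ± 0.46, 2.25 ± 0.46 and 2.16 ± 0.48 (adjusted p = 0.00473, 0.00234 and 0.00464). The same 0 d library, replicate 3, held these down: without it they were 2.76, 2.89 and 2.81. On the log2(FPKM + 1) scale Rhbg differed by -1.55 at 0 d and by 1.51 at 7 d from 0 d, and both passed.

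Oat (gene ID 18242, chromosome 7, 132557475 to 132576398), the ornithine aminotransferase that feeds ornithine into glutamate, was 579, 663 and 645 CPM in WT and 134, 85.7 and 136 CPM at 0 d (log2 difference -2.39 ± 0.43, 5.23-fold lower, adjusted p = 0.000709). Later livers ranged from 257 to 1082 CPM, above all 0 d libraries, and were higher by 2.29 ± 0.42, 2.00 ± 0.41 and 2.07 ± 0.43 on the log2 scale (adjusted p = 0.00158, 0.00233 and 0.00302). These 3 calls were lost when all 26 libraries were fitted together, at adjusted p of 0.0521, 0.0706 and 0.0854.

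In tumors both genes were low but unequal between libraries. Rhbg was 4.74, 1.56 and 3.04 CPM in Hdac3-/- tumors and 1.26, 0.370 and 2.75 CPM in Fah-/- tumors, against 48.2, 19.6 and 28.0 CPM in adjacent tissue (log2 differences -3.38 ± 0.66 and -4.45 ± 0.70, adjusted p = 0.0154 and 0.00535). The first of these did not pass without Hdac3-/- tumor replicate 2 (adjusted p = 0.0733) or 3 (0.0582), and the second was -5.34 without Fah-/- tumor replicate 3. On the log2(FPKM + 1) scale they were -2.55 and -3.12 and passed. Oat was 107.4, 16.6 and 19.0 CPM in Hdac3-/- tumors and 10.8, 6.58 and 111 CPM in Fah-/- tumors, against 629, 359 and 1303 CPM in adjacent tissue. The ranges did not overlap, yet Oat did not pass in Hdac3-/- tumors (-4.01 ± 1.22, 95% interval -6.73 to -1.29, adjusted p = 0.0656, but 0.000571 with DESeq2 and 0.0131 when only those 2 groups were fitted) and only just passed in Fah-/- tumors (-4.17 ± 1.22, adjusted p = 0.0475). Leaving out any 1 of adjacent replicates 1, 2 and 3 or Fah-/- tumor replicates 1 and 2 ended the latter call (adjusted p from 0.0723 to 0.133), and without Fah-/- tumor replicate 3 it was -6.50. It also ended with library totals (adjusted p = 0.0736) or when only those 2 groups were fitted (0.0654). In Hdac3-/- tumors Oat was -5.45 without Hdac3-/- tumor replicate 1, the highest of its group, and -3.40 (adjusted p = 0.159) without adjacent replicate 3.

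Other genes of glutamine, ammonia and ornithine handling, a list of 14 of which 13 could be tested in young livers, moved in part with these 4: 8 were lower and 3 higher at 0 d than in WT. Prodh, a proline oxidase that yields glutamate precursors, had a log2 difference of -2.97 ± 0.29, and Slc25a15, the mitochondrial ornithine carrier, one of -1.59 ± 0.25 (adjusted p = 1.48e-05 and 0.000292). Nags, which makes the activator of the urea cycle, and Glud1, glutamate dehydrogenase, were also lower (-1.16 ± 0.19 and -1.54 ± 0.25, adjusted p = 0.00033 and 0.000332). Prodh, Nags, Slc25a15 and the urea cycle enzyme Otc were higher than at 0 d at 7 d, 21 d and 50 d, for example Prodh by 2.58 ± 0.28, 2.26 ± 0.27 and 2.01 ± 0.28. In tumors Prodh, Otc and Aldh4a1, which acts after Prodh, were lower than in adjacent tissue, among 3 lower and 0 higher of 13 in Hdac3-/- tumors and 4 lower and 2 higher in Fah-/- tumors.

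Among the drug-metabolizing cytochromes, Cyp2e1 and Cyp1a2 did not behave alike. Cyp2e1 (gene ID 13106, chromosome 7, 140763819 to 140774990), which oxidizes ethanol and acetaminophen, was the most abundant member per length, with 3561 to 4313 FPKM in WT. It was 8127, 6326 and 8188 CPM in WT and 339, 333 and 449.9 CPM at 0 d, 19.9-fold lower (log2 difference -4.31 ± 0.67, adjusted p = 0.000244). Cyp1a2 (gene ID 13077, chromosome 9, 57676937 to 57683655), which oxidizes caffeine and aromatic amines and is known to be induced through the aryl hydrocarbon receptor, was 783, 868 and 872 CPM in WT and 712, 405 and 725 CPM at 0 d. Its ranges did not overlap either, as was true of 10 of 10 members and of 56.8% of all genes tested in this comparison, but the difference was small (-0.43 ± 0.35, 95% interval -1.17 to 0.31, adjusted p = 0.345). In counts, Cyp2e1 exceeded Cyp1a2 by 7.29- to 10.4-fold in WT, whereas at 0 d the ratio was 0.476 to 0.823.

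After 0 d, Cyp2e1 was 7625, 13799, 1557 and 2538 CPM at 7 d, 6937, 5258, 2479 and 7576 CPM at 21 d and 2995, 3944 and 3138 CPM at 50 d. All of these exceeded the 0 d libraries by a wide margin, and 50 d lay wholly below WT. The log2 differences from 0 d were 4.07 ± 0.64, 3.88 ± 0.64 and 3.16 ± 0.63 (adjusted p = 0.000685, 0.000672 and 0.00249), the first being 3.37 without 7 d replicate 2 and 3.39 on log2(FPKM + 1). Against WT the 50 d level was -1.16 ± 0.59, which did not pass (95% interval -2.40 to 0.09, adjusted p = 0.215) except when only those 2 groups were fitted (-1.15, adjusted p = 0.00763). Cyp1a2 was 1036, 1701, 436 and 1200 CPM at 7 d, 806 to 1168 CPM at 21 d and 759 to 883 CPM at 50 d, and none of the 3 differences from 0 d passed (0.82 ± 0.33, 0.61 ± 0.33 and 0.43 ± 0.35, adjusted p = 0.0797, 0.165 and 0.387). At 7 d it rested on replicate 3, the lowest: without it the difference was 1.08 (adjusted p = 0.0064), and DESeq2 called it with all libraries (0.82, adjusted p = 0.0395).

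In tumors both cytochromes stood far below adjacent tissue. Cyp2e1 was 10758, 16521 and 7375 CPM in adjacent tissue, 253, 12.0 and 68.5 CPM in Hdac3-/- tumors and 23.0, 248 and 60.3 CPM in Fah-/- tumors, 104-fold lower in Hdac3-/- tumors (log2 difference -6.71 ± 1.34, adjusted p = 0.0164) and 105-fold lower in Fah-/- tumors (-6.71 ± 1.34, adjusted p = 0.0123). The tumors of each kind spread over more than 10-fold. The first call ended without Hdac3-/- tumor replicate 2 or 3 (adjusted p = 0.0505 and 0.0657), and without replicate 1 the value was -8.19; the second was -8.12 without Fah-/- tumor replicate 2. Cyp1a2 was 552.5, 1836 and 1047 CPM in adjacent tissue, 54.1, 206 and 58.7 CPM in Hdac3-/- tumors and 68.5, 4.07 and 21.3 CPM in Fah-/- tumors. Again no tumor reached the adjacent range. The difference did not pass in Hdac3-/- tumors (-3.44 ± 0.97, 95% interval -5.60 to -1.27, adjusted p = 0.0527, but 0.000522 with DESeq2 and 0.00859 when only those 2 groups were fitted) and passed in Fah-/- tumors (-5.21 ± 1.05, adjusted p = 0.013; -6.49 without Fah-/- tumor replicate 1). Without Hdac3-/- tumor replicate 2, the highest of its group, the former was -4.35 (adjusted p = 0.085).

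Slc13a3 and Gulo, the last of the pericentral members, fell least at 0 d among those that passed. Slc13a3 (gene ID 114644, chromosome 2, 165405295 to 165473197), a sodium-coupled carrier of dicarboxylates, was 58.5, 57.2 and 31.3 CPM in WT and 14.0, 10.5 and 22.5 CPM at 0 d (-1.62 ± 0.28, adjusted p = 0.000487). It was 87.0, 122, 71.9 and 91.0 CPM at 7 d, 84.2, 72.8, 93.9 and 94.3 CPM at 21 d and 125, 121 and 116 CPM at 50 d. All later libraries exceeded not just 0 d but also WT. The log2 differences from 0 d were 2.55 ± 0.28, 2.45 ± 0.27 and 2.93 ± 0.29 (adjusted p = 5.42e-05, 7.73e-05 and 2.43e-05).

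Gulo (gene ID 268756, chromosome 14, 65986786 to 66009254), the enzyme of the last step of vitamin C synthesis in the mouse, was 457, 490.4 and 485 CPM in WT and 139, 99.0 and 185 CPM at 0 d (-1.74 ± 0.34, adjusted p = 0.00124). At 7 d it was 636, 809.8, 266.5 and 331 CPM, at 21 d 449, 371, 525 and 505 CPM and at 50 d 500.2, 532 and 459 CPM, so every later library exceeded every 0 d library. The log2 differences from 0 d were 1.84 ± 0.33, 1.70 ± 0.33 and 1.80 ± 0.34 (adjusted p = 0.00143, 0.00156 and 0.00179).

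Gulo had the smallest adjusted p of the members in both tumor comparisons. It was 731, 858 and 689.8 CPM in adjacent tissue, 27.3, 34.2 and 38.1 CPM in Hdac3-/- tumors and 26.8, 11.4 and 4.33 CPM in Fah-/- tumors, 23.2-fold lower (-4.54 ± 0.60, adjusted p = 0.00438) and 54.4-fold lower (-5.77 ± 0.64, adjusted p = 0.00199; -6.60 without Fah-/- tumor replicate 1). Slc13a3 was 109.8, 43.3 and 57.7 CPM in adjacent tissue, 11.6, 6.67 and 8.58 CPM in Hdac3-/- tumors and 5.36, 25.9 and 13.1 CPM in Fah-/- tumors (-3.00 ± 0.59 and -2.27 ± 0.57, adjusted p = 0.0156 and 0.0271). Neither call was stable to single libraries: the first ended without Hdac3-/- tumor replicate 2 or 3 (adjusted p = 0.0809 and 0.0584) and the second without adjacent replicate 1 or 3 or Fah-/- tumor replicate 3 (adjusted p = 0.0784, 0.0668 and 0.0653), and was -2.95 without Fah-/- tumor replicate 2. On log2(FPKM + 1) the first was -2.34 (adjusted p = 0.0267, or 0.0539 with no filter).

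The 2 periportal members did not share the pericentral pattern. Cyp2f2 (gene ID 13107, chromosome 7, 27119955 to 27133660), which oxidizes naphthalene, was 1323, 1394 and 1370.3 CPM in WT and 1734, 2199 and 1806 CPM at 0 d, above the WT range but not past the test (0.51 ± 0.43, 95% interval -0.39 to 1.41, adjusted p = 0.362; 0.0244 when only those 2 groups were fitted). It was 1681, 1528, 289 and 657 CPM at 7 d, 1361 to 1799 CPM at 21 d and 1015 to 1231 CPM at 50 d. Replicates 3 and 4 set the 7 d group apart from the others here too. Differences from 0 d were -0.90 ± 0.39, -0.28 ± 0.40 and -0.76 ± 0.43 (adjusted p = 0.102, 0.608 and 0.20); the first passed when scaled by library totals (-1.16, adjusted p = 0.0258), on FPKM (-1.39, adjusted p = 0.0145) and without 7 d replicate 1 (-1.23, adjusted p = 0.0396). It was -0.25 (adjusted p = 0.322) without 7 d replicates 3 and 4, and at 50 d Cyp2f2 passed when only those 2 groups were fitted (-0.76, adjusted p = 0.00211).

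Hsd17b13 (gene ID 243168, chromosome 5, 103955442 to 103977388), a protein of hepatocyte lipid droplets, rose where the pericentral genes fell. It was 331, 405 and 389.9 CPM in WT and 752, 755 and 682 CPM at 0 d (0.98 ± 0.25, adjusted p = 0.00604). At 7 d it was 533, 563, 439.7 and 477 CPM, at 21 d 396, 422, 715 and 335 CPM and at 50 d 430.3, 327 and 487 CPM, so the 21 d group overlapped 0 d through replicate 3 and the others did not. The log2 differences from 0 d were -0.55 ± 0.23, -0.65 ± 0.23 and -0.83 ± 0.25 (adjusted p = 0.0815, 0.0377 and 0.0218). At 7 d Hsd17b13 passed as lower when scaled by library totals (-0.74, adjusted p = 0.0393) and in 3 limma-trend fits on FPKM (-0.75 in each, adjusted p from 0.033 to 0.0444). The last 2 calls were weak: leaving out 1 library ended that at 21 d for all but replicate 3 of the 21 d group (adjusted p from 0.0711 to 0.11) and that at 50 d for 0 d replicates 1 and 2 and 50 d replicates 1 and 2 (from 0.0612 to 0.0853).

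In older tissue Hsd17b13 was 239, 267 and 267 CPM in adjacent tissue, 914, 987 and 1229 CPM in Hdac3-/- tumors and 766, 689.8 and 834 CPM in Fah-/- tumors. No library of either tumor group came near the adjacent range (2.00 ± 0.28 and 1.55 ± 0.28, adjusted p = 0.00532 and 0.0086). Cyp2f2 was 1157, 2676 and 964 CPM in adjacent tissue, 818, 1674.5 and 1539.5 CPM in Hdac3-/- tumors and 126, 1438 and 1056 CPM in Fah-/- tumors. These ranges overlapped, with differences of -0.26 ± 0.75 (95% interval -1.94 to 1.42, adjusted p = 0.855) and -0.87 ± 0.76 (95% interval -2.56 to 0.82, adjusted p = 0.457). The first was 0.30 without adjacent replicate 2, the highest of its group.

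**Figure D2:**
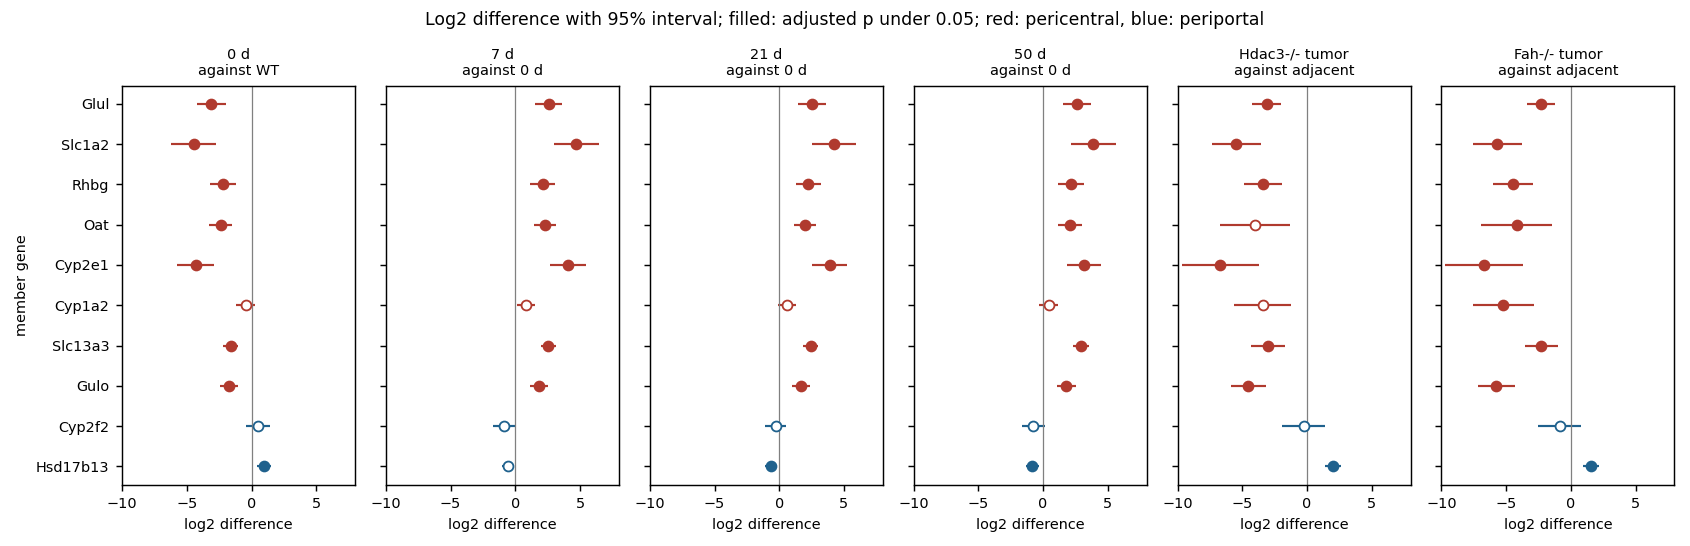
Log2 difference of each member with its 95% interval (horizontal axis) in 6 comparisons; filled points passed at an adjusted p of 0.05, red is pericentral and blue periportal. Cyp1a2 and Cyp2f2 lie near 0 at 0 d, and in the tumor panels all 8 pericentral members lie left of 0 and Hsd17b13 right of it.

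Counted together, 7 of 8 pericentral members were higher than at 0 d at 7 d, at 21 d and at 50 d, where 14.7, 17.6 and 14.4% of all genes were called higher and 26.6, 31.6 and 25.8% called in either direction. Their median log2 differences were 2.42, 2.35 and 2.39, against 0.04, 0.01 and 0.01 for all genes. Their ranges were separate from 0 d for 7, 8 and 8 of 8, as were 37.2, 48.1 and 54.5% of all genes. Hsd17b13 was called lower at 21 d and 50 d, where 14 and 11.4% of all genes were, and no periportal member was at 7 d, where 11.9% were, although both passed there with library totals and on FPKM. The 3 comparisons share the 0 d libraries, so they are not independent of each other or of 0 d against WT. The later livers held Y-linked transcripts and 0 d livers did not, and a list of 8 male-biased liver genes was higher than at 0 d for 8, 7 and 5 of its members. Time after sPH and sex cannot be told apart there. The beta-globin share given above also set 0 d apart from every later library but 7 d replicate 4. Genetic background therefore cannot be told apart from time either, save in part at 7 d. Acute phase genes also differed: their sum was 8571 to 9989 CPM at 0 d and 12230 to 76700 CPM later, with 9, 8 and 9 of 10 called higher. Hepatocyte markers summed to 51920 to 62460 CPM at 0 d and to 54700 to 149000, 78370 to 101100 and 97330 to 100200 CPM at 7 d, 21 d and 50 d, with 4, 6 and 4 of 8 called higher. Stellate and matrix markers had 5, 6 and 2 of 8 lower and biliary markers 3, 4 and 1 of 8 lower, and neutrophil markers had 6 of 6 higher at 7 d and 0 at 21 d and 50 d. The part of all these in the members' levels was not tested.

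Other cell markers differed between 0 d and WT as well. The summed level of 8 hepatocyte markers was 166100 to 182900 CPM in WT and 51920 to 62460 CPM at 0 d, and that of 8 biliary markers 62.6 to 77.3 and 412 to 658 CPM, with 7 of 8 called higher and none at 0. Of 10 female-biased liver genes 9 were lower, though neither group held Y-linked transcripts. Stellate and matrix markers summed to 336 to 363 CPM in WT and 713 to 1140 CPM at 0 d, with 5 of 8 higher, and acute phase genes had 6 of 10 lower and 1 higher. Macrophage markers had 3 of 8 higher and 2 lower, sinusoidal endothelium markers 1 of 8 higher, lymphocyte markers 1 of 6 tested higher and neutrophil markers 0 of 6, while exocrine pancreas markers summed to at most 4.38 CPM in any of the 26 libraries. The part of these shifts in the members' levels was not tested.

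Compared directly with WT, later livers had member levels that mostly did not differ past the test. At 7 d 1 of 10 members passed, as higher (12.8% of all genes passed, 8.14% as higher), at 21 d 0 of 10 (8.67%; 1 of 10 members with DESeq2) and at 50 d 1 of 10, as higher (11.2%, 6.45% as higher). That member was Slc13a3 in both cases, higher than WT by 0.93 ± 0.26 at 7 d (adjusted p = 0.0272) and by 1.31 ± 0.27 at 50 d (adjusted p = 0.00597), with 0.83 ± 0.26 at 21 d (adjusted p = 0.0544). WT replicate 3, with 31.3 CPM, decided the first: without it the difference was 0.68 (adjusted p = 0.111). With all 26 libraries in 1 fit neither passed (adjusted p = 0.168 and 0.0694). At 50 d Glul, Slc1a2, Oat, Cyp2e1 and Cyp2f2 nonetheless lay wholly below the WT range, and Slc13a3 wholly above it. The share of all genes with such separate ranges is not given here, and a difference that did not pass does not show equal levels. WT and the later livers also differ in Y-linked transcripts and in the beta-globin share given above. Here too the groups' labels, sex and genetic background cannot be told apart. Of 10 female-biased liver genes 10 were lower than WT at each later time. Biliary markers had 5, 4 and 5 of 8 higher at 7 d, 21 d and 50 d, macrophage markers 7, 2 and 5 of 8, neutrophil markers 6, 0 and 2 of 6 and acute phase genes 7, 3 and 7 of 10, and their part in the members' levels was not tested. Between 50 d and 7 d 0 of 10 members passed, as did 0.441% of all genes; 10 of 10 members' ranges overlapped, while 8.36% of all genes had ranges that did not, and the members' differences ran from -0.92 ± 0.56 for Cyp2e1 to 0.38 ± 0.25 for Slc13a3. The former was -0.22 (adjusted p = 0.888) without 7 d replicate 2, the highest of its group. Of all genes 9.8% reached an unadjusted p under 0.05 there.

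Single libraries differed widely within 7 d and 21 d, and not in the same members. At 7 d replicate 2 was the highest of its group in 8 of 8 pericentral members and replicate 3 the lowest in 7 of 8, with replicate 4 lowest in Oat. Replicates 3 and 4 were also low in Cyp2f2, and their hepatocyte markers summed to 65710 and 54700 CPM against 106600 and 149000 CPM in replicates 1 and 2. Replicate 3 had the most acute phase transcripts of the group, 76700 CPM against 24680 to 31250 CPM, and the most neutrophil markers, 1620 CPM against 97.5 to 251.5 CPM. At 21 d replicate 3 was lowest in Glul, Slc1a2, Rhbg, Oat and Cyp2e1 but highest in Cyp1a2, Gulo, Cyp2f2 and Hsd17b13. It had the fewest acute phase transcripts of its group, 12230 CPM against 25100 to 30990 CPM, and the lowest hepatocyte marker sum, 78370 CPM against 87110 to 101100 CPM. Whether these marker levels bear on the members was not tested.

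**Figure D3:**
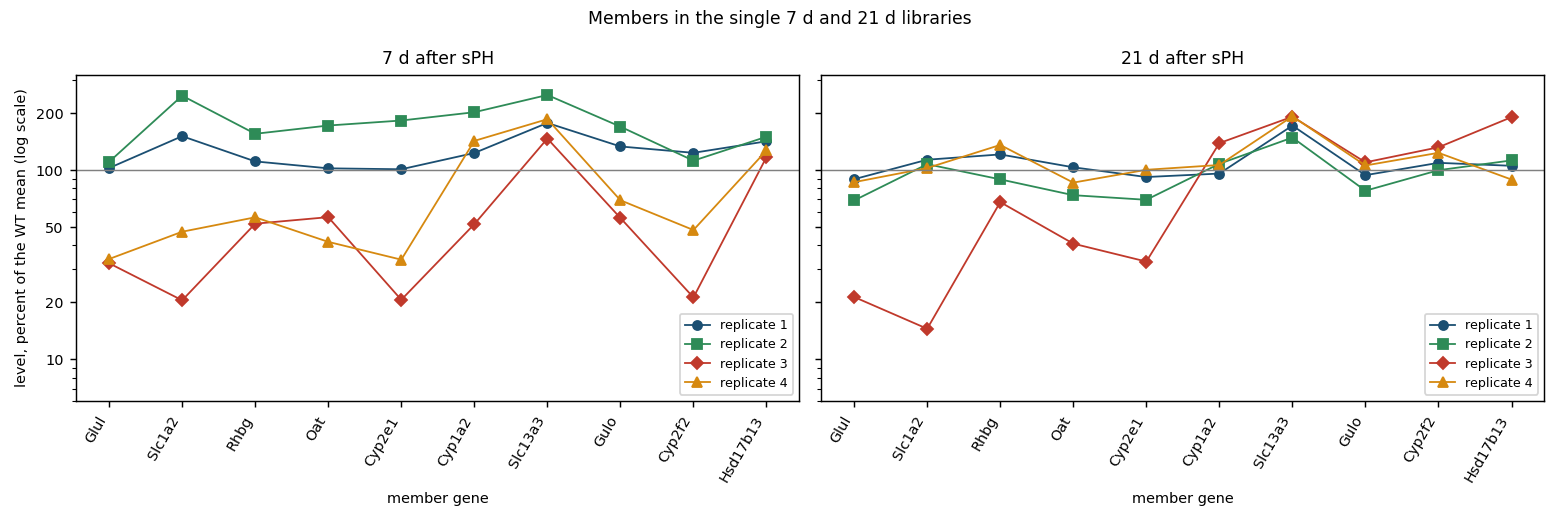
Level of each member in the 4 libraries at 7 d (left) and the 4 at 21 d (right), as a percentage of the WT mean on a log scale; the grey line is the WT mean. At 7 d replicates 3 and 4 drop in most pericentral members and in Cyp2f2, while at 21 d replicate 3 drops in Glul, Slc1a2, Rhbg, Oat and Cyp2e1 and not in Cyp1a2, Slc13a3, Gulo, Cyp2f2 or Hsd17b13.

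Without 7 d replicates 3 and 4, 8 of 10 members passed against 0 d in place of 7, with Cyp1a2 added (1.16, adjusted p = 0.00352), and Glul, Slc1a2 and Cyp2e1 differed by 3.21, 5.49 and 4.84. Cyp2e1 then also passed as lower at 50 d than at 7 d (-1.67, adjusted p = 0.0274). In these fits 37.1% of all genes were called at 7 d against 0 d, in place of 26.6%, and 2.6% at 50 d against 7 d, in place of 0.441%, so calls rose over all genes and not just among the members. This setting was chosen after the values were seen.

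Tumors and adjacent tissue were compared in a fit of the 9 older libraries and 13187 genes. In Hdac3-/- tumors 6 of 8 pericentral members were lower, where 4.98% of all genes were called lower and 10.3% called in either direction, and in Fah-/- tumors 8 of 8 were lower, where 7.08% were called lower and 15.3% in all. The median log2 differences of the pericentral members were -3.73 and -4.83, against 0.02 and 0.04 for all genes. Hsd17b13 was higher in both, where 5.29 and 8.19% of genes were called higher. Both comparisons use the same 3 adjacent libraries. All 8 pericentral ranges were separate from adjacent tissue in both comparisons, as were 39.1 and 33.4% of all genes.

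The 2 libraries with Y-linked transcripts weigh on the older comparisons. Without both, 0 of 10 members and 0 of 13502 genes passed between Hdac3-/- tumors and adjacent tissue, each group then having 2 libraries; the pericentral members still differed by between -6.15 for Cyp2e1 and -2.66 for Cyp1a2. With the presence of these transcripts as a covariate, 7 of 10 members passed in Hdac3-/- tumors, as did 7.94% of all genes, and 8 of 10 in Fah-/- tumors, as did 8.46%, Oat not among them (adjusted p = 0.0567). Without both libraries 4 of 10 passed in Fah-/- tumors, as did 4.04% of all genes. Hepatocyte markers summed to 118000 to 140000 CPM in adjacent tissue, to 43830 to 127700 CPM in Hdac3-/- tumors and to 38860 to 88240 CPM in Fah-/- tumors, wholly below adjacent tissue in the last, with 1 of 8 called lower in each. Stellate and matrix markers summed to 228 to 249 CPM in adjacent tissue, to 252 to 417 CPM in Hdac3-/- tumors, wholly above it and with 1 of 8 higher, and to 36.1 to 282 CPM in Fah-/- tumors, with 2 of 8 lower. Biliary markers summed to 88.5 to 141 CPM in adjacent tissue, 57.9 to 133 CPM in Hdac3-/- tumors and 112 to 231 CPM in Fah-/- tumors, where Cftr was at 0. Macrophage markers summed to 202 to 958 CPM in adjacent tissue, 121 to 211 CPM in Hdac3-/- tumors and 173 to 335 CPM in Fah-/- tumors, with 1 and 4 of 8 lower. The part of these in the members' levels was not tested.

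The 2 tumor groups did not differ in any member past the test. Of all 13187 genes 0 were called between them by edgeR and 44 by DESeq2, with 6.92% at an unadjusted p under 0.05. Gulo and Hsd17b13 were the 2 members whose ranges did not overlap, as held for 12.5% of all genes: their log2 differences, Fah-/- minus Hdac3-/- tumors, were -1.23 ± 0.53 (95% interval -2.42 to -0.04, adjusted p = 0.671) and -0.45 ± 0.27 (-1.06 to 0.17, adjusted p = 0.676). Glul was 0.80 ± 0.46 (-0.24 to 1.83) and Cyp1a2 -1.77 ± 0.91 (-3.81 to 0.26). Single libraries moved these without a call: Glul was 1.57 without Hdac3-/- tumor replicate 1, Cyp1a2 -0.86 without Hdac3-/- tumor replicate 2 and -3.06 without Fah-/- tumor replicate 1, and Gulo -2.07 without the latter. Intervals this wide do not show the 2 kinds of tumor to be alike.

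A ratio of 2 genes in the same library needs no scaling between libraries, and Cyp2e1 over Cyp2f2 sets a pericentral against a periportal enzyme. In counts it was 6.14, 4.54 and 5.97 in WT and 0.196, 0.152 and 0.249 at 0 d. It was 4.53, 9.03, 5.38 and 3.86 at 7 d, 4.66, 3.86, 1.38 and 4.51 at 21 d and 2.55, 3.89 and 2.55 at 50 d. Thus 7 d replicates 3 and 4, low in both genes, had ratios inside or near the WT range, whereas 21 d replicate 3 had the lowest ratio of the later livers.

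The ratio was 9.30, 6.17 and 7.65 in adjacent tissue, 0.310, 0.00713 and 0.0445 in Hdac3-/- tumors and 0.184, 0.173 and 0.0571 in Fah-/- tumors. Every library at 0 d and every tumor lay below 1, and every other library above 1. Gulo over Hsd17b13 separated the same libraries, with 1.21 to 1.38 in WT, 0.131 to 0.271 at 0 d, 0.606 to 1.63 later, 2.59 to 3.21 in adjacent tissue and 0.00520 to 0.0350 in tumors. Glul over Gls2, the periportal glutaminase, did not separate them in this way: it was 2.02 to 3.53 in WT, 1.30 to 1.92 at 0 d, 2.41 to 4.18 at 7 d, 1.43 to 3.13 at 21 d, 3.23 to 3.43 at 50 d, 2.86 to 5.56 in adjacent tissue, 0.505 to 1.25 in Hdac3-/- tumors and 0.869 to 5.71 in Fah-/- tumors. The 0 d range lay below WT but overlapped 21 d, and that of the Fah-/- tumors overlapped adjacent tissue.

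**Figure D4:**
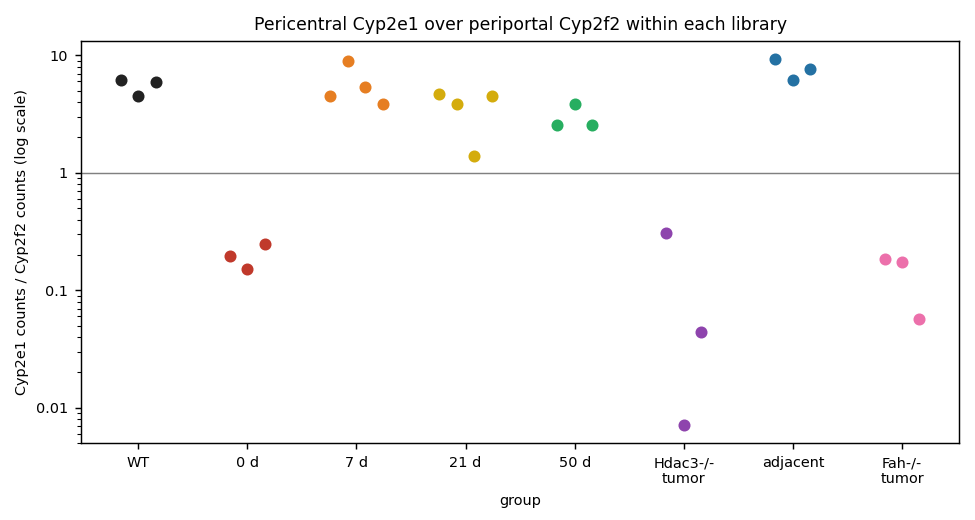
Cyp2e1 counts over Cyp2f2 counts in each library, on a log scale, by group; the grey line marks equal counts. All 3 libraries at 0 d and all 6 tumors lie below 1 and all 17 others lie above it.

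Genes with the same zonal positions that are not members moved less uniformly at 0 d. Of 22 other pericentral genes 12 were lower and 5 higher than in WT, with a median of -0.85. Their summed level went the other way, with 16430 to 19830 CPM in WT and 39190 to 40260 CPM at 0 d. The strongest calls were Lect2, a secreted hepatokine and Wnt target (-3.37 ± 0.28, adjusted p = 3.16e-06), Rgn, a calcium-binding lactonase of vitamin C synthesis (-5.79 ± 0.66, adjusted p = 3.17e-05), Pon1, a serum esterase (-4.93 ± 0.63, adjusted p = 7.86e-05) and Cyp2c37 (-5.66 ± 0.76, adjusted p = 9.84e-05), a cytochrome of a family of near-identical neighbours whose reads the counts may divide wrongly. Higher were Gstm3, Cyp2a5, Gstm1, Blvrb and Cldn2, chosen here as the 5 exceptions after their values were seen.

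Of 23 other periportal genes 16 were lower at 0 d and 3 higher, with a median of -1.57, so lower levels were not limited to the pericentral lists. Hsd17b6, a steroid dehydrogenase (-5.77 ± 0.60), Igf1, the growth factor (-3.00 ± 0.40), Hal, which degrades histidine (-3.50 ± 0.47), and Sds, which degrades serine (-2.82 ± 0.38), led the list, with adjusted p from 2.11e-05 to 9.71e-05. Lect2, Rgn, Hsd17b6, Igf1 and Sds were higher than at 0 d at all later times, Lect2 for example by 2.56 ± 0.26, 2.30 ± 0.26 and 2.68 ± 0.27.

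In Hdac3-/- tumors the 2 lists moved differently from each other: 10 of 22 other pericentral genes were lower and 2 higher than in adjacent tissue (median -2.08), against 2 lower and 1 higher of 23 other periportal genes (median -0.10). The difference between lists was not tested. Cyp2c37 (-6.06 ± 0.57), Cyp2c54 (-8.48 ± 0.83), Lect2 (-6.32 ± 0.72) and Pon1 (-6.63 ± 0.78) led the first, and Hsd17b6 (-5.36 ± 0.78), Igf1 (-3.21 ± 0.85) and Sdsl, a serine dehydratase (1.25 ± 0.34), were the calls of the second. In Fah-/- tumors the counts were 10 lower and 2 higher of 22, and 3 lower and 3 higher of 23.

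**Figure D5:**
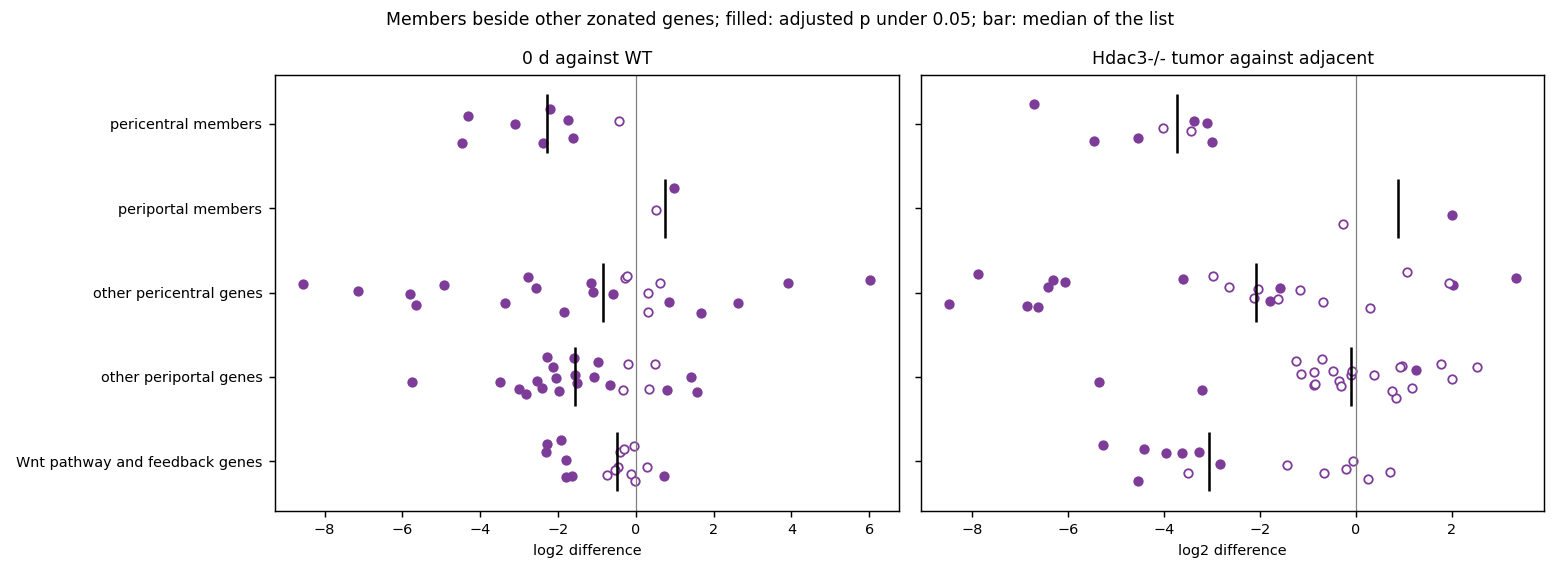
Log2 differences (horizontal axis) of the members and of 3 lists of other genes at 0 d against WT (left) and in Hdac3-/- tumors against adjacent tissue (right); filled points passed at an adjusted p of 0.05, open points did not, and bars are medians. Other periportal genes have a median of -1.57 on the left and -0.10 on the right.

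Genes of the Wnt pathway and its feedback, which sustains pericentral expression, were a list of 18, of which 16 could be tested in young livers. At 0 d 6 were lower and 1 higher than in WT: Notum, a secreted Wnt inhibitor and Wnt target (-2.28 ± 0.32, adjusted p = 0.000143), Axin2, the feedback target (-1.64 ± 0.38, adjusted p = 0.0035), and Tcf7, a TCF factor (-1.79 ± 0.43, adjusted p = 0.00442), were lower, and Ctnnb1, beta-catenin, was higher (0.72 ± 0.17, adjusted p = 0.0044). The ligands Wnt2 and Wnt9b and the enhancer Rspo3, named here after their values were seen, had means of 0.790, 1.07 and 3.62 CPM in WT and 0.711, 1.02 and 4.35 CPM at 0 d and did not pass. Notum and Axin2 were higher than at 0 d at 7 d, 21 d and 50 d, and Ctnnb1 lower.

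In Hdac3-/- tumors 7 of 14 tested genes of this list were lower than in adjacent tissue and none higher, and the same counts held in Fah-/- tumors. Tbx3, a transcription factor and Wnt target (-5.26 ± 0.56 and -4.76 ± 0.55), Axin2 (-4.41 ± 0.51 and -4.05 ± 0.49), Nkd1, a feedback inhibitor (-3.28 ± 0.43 and -3.95 ± 0.44), and Tcf7 (-3.62 ± 0.52 and -3.02 ± 0.50) led both. Axin2 was 0.636 ± 0.197 CPM (SD, n = 3) in Hdac3-/- tumors, 0.836 ± 0.441 CPM in Fah-/- tumors and 13.8 ± 3.94 CPM in adjacent tissue. Wnt2, Wnt9b and Rspo3, again named after their values were seen, had means of 0.615, 0.414 and 1.83 CPM in adjacent tissue. Their means were 0.0698, 0.105 and 0.683 CPM in Hdac3-/- tumors and 0, 0.185 and 0.267 CPM in Fah-/- tumors. The tumor ranges overlapped adjacent tissue for Wnt9b in both kinds of tumor and for Rspo3 in Hdac3-/- tumors. They did not overlap for Wnt2 in either kind or for Rspo3 in Fah-/- tumors. Levels of Wnt2 and Wnt9b were near the floor in every group. Among 12 hepatocyte regulators, Nr1i3, the nuclear receptor CAR, was lower at 0 d (-2.54 ± 0.35, adjusted p = 0.000114) and in both tumors (-4.08 ± 0.83 and -5.17 ± 0.88). Ahr, the aryl hydrocarbon receptor, was lower in both tumors (-2.25 ± 0.54 and -2.63 ± 0.55). The cytochrome Cyp1a1, named here after its values were seen, did not follow Cyp1a2. It ranged from 25.2 to 108.5 CPM in Hdac3-/- tumors, wholly above the 0.388 to 1.66 CPM of adjacent tissue. In Fah-/- tumors it ranged from 0.526 to 101.8 CPM, which overlapped adjacent tissue. At 0 d it was 7.82 to 15.6 CPM, against 0.322 to 1.37 CPM in WT. Whether activity of the receptor differed was not tested.

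Across all 26 libraries each member was compared with 12904 other genes of at least 1 CPM on average by the root mean square difference of their centred log2(CPM + 1) values, a description over libraries that share groups and scaling. For 1 of 10 members the nearest gene was another member: Cyp1a2 was nearest to Gulo (0.79), Gulo to the Wnt target Tbx3 (0.77) and to Lect2 (0.77), and Cyp2e1 to Akr1c6, a hydroxysteroid dehydrogenase (0.63), then Cyp2c23 (0.78) and Slc1a2 (0.90). Glul was nearest to Bdh2 (0.44), Oat to Igf1 (0.52), Rhbg to Syt1 (0.47), Slc1a2 to Slc22a30 (0.72), Slc13a3 to Timd4 (0.67), Cyp2f2 to Akr1c12 (0.57) and Hsd17b13 to Atg12 (0.31). Members that vary little have small distances by that alone. The root mean square of a member's own centred values was 0.62 for Hsd17b13, 0.88 for Cyp2f2 and 2.94 for Cyp2e1. Between members, the distance was smallest for Glul and Rhbg (0.76) and largest for Cyp2e1 and Hsd17b13 (3.48).

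The order of group means was shared by most pericentral members. Adjacent tissue ranked highest for 7 of the 8, all but Slc13a3, which was highest at 50 d, and tumors or 0 d ranked lowest in all 8. For Slc1a2, Rhbg, Oat, Cyp2e1, Cyp1a2, Slc13a3 and Gulo the 5 groups of WT, 7 d, 21 d, 50 d and adjacent tissue came before 0 d. Among those 5 groups each neighbour overlapped the next. In all of these genes but Cyp1a2, every library of the 5 groups lay above the 0 d range. Cyp1a2 at 50 d stood clear of 0 d. However, its 7 d replicate 3 (436 CPM) and adjacent replicate 1 (552.5 CPM) lay inside the 0 d range of 405 to 725 CPM. For Glul only adjacent tissue, then WT, stood clear of the next group, while 7 d overlapped 21 d, and 21 d overlapped the Fah-/- tumors. In Cyp2f2 every neighbour overlapped, and in Hsd17b13 the order ran from Hdac3-/- tumors down to adjacent tissue.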

How the data were processed

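RNA was extracted from liver with Trizol and made into TruSeq libraries, per the labels' protocols. The submitters' processing notes name HISAT, Bowtie2 and the mm10 build. The counting tool was not given in the sources used here. Deposited by the authors were, per gene and library, estimated counts, which need not be whole, and FPKM values, per the file headers. Entrez gene IDs were matched to symbols for 19573 of 19638 genes by ID and 11 by accession, and a gene absent from a library was given 0.

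Estimated counts were rounded and tested with edgeR 4.0.16 (R 4.3.3): filterByExpr, TMM, the quasi-likelihood F-test and Benjamini-Hochberg adjustment over all genes, with a threshold of 0.05. Young (17 libraries) and older (9 libraries) tissue were fitted apart, each over all its groups. SE is the size of the log2 difference over the root of F. Levels are CPM scaled over all 26 libraries. In data simulated from 0 d against WT, 31% of 2-fold and 80% of 4-fold changes were recovered, and 3.48% of calls were false. For Hdac3-/- tumors against adjacent tissue, 0% and 17% were recovered. A far smaller share of genes was altered in these simulations than was called in the data, so the recovered shares need not hold for the reported tests.

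The 10 members and all lists were chosen with earlier results of these data known. Named beside the members are at most 4 called genes per list and comparison, those of smallest adjusted p, and the genes of most like profile. Exceptions to this are named as such. Alternatives were DESeq2 1.42.0, its size factors, library totals, no filter, other sets of libraries, a replicate block, limma-trend 3.58.1 on log2(FPKM + 1 or 0.1), each library left out, and a Y-linked covariate. Correlations of deviations between same-numbered replicates ran from -0.197 to 0.257, so the numbers were not taken as pairs. Whether a tumor and an adjacent library of other numbers share a mouse is not in the labels, and no such pairing was modelled.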

Additional observations from a re-analysis of the deposited data

Results flagged for a closer look

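Of 20 sets of 4 libraries tested (10 members at 7 d and at 21 d), 1 had a library far from the other 3: Slc1a2 in 21 d replicate 3, at 21.3 CPM against 151 to 167 CPM. The gap to its nearest neighbour was 0.890 of the whole range, above the critical value of 0.829. Chance flags about 1 in 20 such sets.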

How the results depend on the processing

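Of 110 member differences, 49 were called; 0 of these changed sign under any alternative and 20 lost their call under at least 1. Of the 61 not called, 22 changed sign and 10 were called under at least 1. Counts of called members moved by over 1.5 times as follows: 50 d against 7 d 1 (without 7 d replicates 3 and 4); 7 d against WT 0 (replicate block, only the 2 groups, or all 26 libraries together); 21 d against WT 1 (DESeq2, library totals and 3 limma-trend fits); 50 d against WT 2 (only the 2 groups) or 0 (all 26); without the 2 libraries with Y-linked transcripts, Hdac3-/- tumors 0 and Fah-/- tumors 4. With 1 library left out, counts over all 10 members stayed at 8 for 0 d against WT and ran from 7 to 8 for each later time against 0 d. They ran from 0 to 1 for 7 d against WT, from 4 to 7 for Hdac3-/- tumors and from 6 to 8 for Fah-/- tumors. The reported fits called 6 lower and 1 higher in Hdac3-/- tumors and 8 lower and 1 higher in Fah-/- tumors. Counts were 1 at 50 d and 0 at 21 d against WT, 0 for 50 d against 7 d and 0 between tumors. Cyp2f2 in Hdac3-/- tumors was 0.00 with each limma-trend fit, -0.53 to 0.30 with 1 library left out (0.30 without adjacent replicate 2) and 0.19 without the 2 libraries with Y-linked transcripts. With the replicate block, Slc13a3 at 7 d against WT (0.91, adjusted p = 0.0669), Hsd17b13 at 21 d against 0 d (-0.61, 0.063) and Slc13a3 in Fah-/- tumors (-2.23, 0.0651) were not called. Apart from fits with fewer libraries, the cause was not tested. Calls over all genes ran from 0 to 3936 in Hdac3-/- tumors (1354 in the reported fit), 545 to 4832 in Fah-/- tumors (2014), 151 to 2293 at 7 d against WT (1748), 405 to 1831 at 21 d (1181), 689 to 2121 at 50 d (1530), 14 to 358 for 50 d against 7 d (60), 0 to 76 between tumors (0), and 2103 to 5108, 2804 to 5443 and 2078 to 5697 at 7 d, 21 d and 50 d against 0 d (3626, 4303 and 3507). Scaling by library totals moved the median of all genes by 0.30 for 0 d against WT, by 0.19 and 0.21 in Hdac3-/- and Fah-/- tumors, by -0.17, -0.22 and -0.19 at 7 d, 21 d and 50 d against 0 d, and by 0.12 and 0.11 at 7 d and 50 d against WT; for the first 6 the share of calls that were higher went from 49 to 69.7%, from 51.5 to 65.2%, from 53.6 to 70.5%, from 55.3 to 38%, from 55.6 to 35.1% and from 55.7 to 39.2%. Leaving out 7 d replicates 3 and 4, or the 2 libraries with Y-linked transcripts, was chosen after seeing the data. Low counts limit Rhbg and, in tumors, Slc1a2.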
